A study of Mus musculus with 13 samples.

Results

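TRAV5 is a family of mouse T cell receptor (TCR) α-chain variable genes, and its clonotypes were followed here in regulatory T (Treg) cells rescued from Foxp3 deficiency. A clonotype was a distinct rearrangement, given by its V gene, its J gene and the nucleotide sequence of its CDR3, the junction between them. A clonotype was a member of the family if its V gene carried the number 5 directly after TRAV, so that TRAV15 was left out, and if its CDR3 could be translated without a stop or a frameshift. This gave 3062 of the 78521 functional clonotypes in the 13 samples, or 3.90%. Because the same rearrangement could occur in several samples, the members held 2586 distinct CDR3 nucleotide sequences and 2260 distinct CDR3 amino-acid sequences.

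The samples came from male C57BL/6 mice of the genotype Foxp3LSL/y Cd4creERT2, in which a removable stop cassette silences Foxp3, the gene of the lineage-defining Treg transcription factor. A Cre recombinase driven from the Cd4 locus, and so present in all cells of the T lineage that express Cd4, was activated in all of the mice by 4-hydroxytamoxifen on postnatal day 14. Cells that had regained Foxp3 were recognised by GFP, sorted as TCRβ+CD4+GFP+Thy1.1- from spleen and lymph nodes at 1.5 months (n = 2, age 8 weeks), 3 months (n = 4, age 3.5 months), 5 months (n = 2, age 5.5 months) or 7 months (n = 5, age 7.5 months) after treatment, with no untreated or Foxp3-sufficient group among these libraries. TCRα transcripts were amplified by 5′ RACE and sequenced. The tables list only receptor rearrangements, so the Treg identity of the cells was not checked against expression markers. The labels do not state whether replicates came from separate mice, and p-values measure the spread between the samples as they are.

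The α-chain locus has many V genes followed by a long row of J genes, and a developing T cell can rearrange it repeatedly. Early rearrangements tend to join V genes that lie near the J genes to J genes at the V-facing end of the row, and later ones reach outward on both sides. In the distal part of the mouse V region a block of genes is present in several copies, and the letters D and N in a gene name mark the duplicated copies. The CDR3 is the part of the chain that lies over the bound peptide, while the V gene itself encodes the loops that mostly touch the MHC molecule.

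The functional clonotypes used 4 TRAV5 genes, all on the plus strand of chromosome 14 in GRCm38. In the order of the locus these were TRAV5-1 (chr14:52622566-52623082), TRAV5D-4 (chr14:53001713-53002232), TRAV5N-4 (chr14:53312904-53313422) and TRAV5-4 (chr14:53704007-53704514). TRAV5-4 lies nearest to the J genes, 450491 bases before TRAJ61, the first annotated J segment, and TRAV5-1 lies farthest, 1531923 bases before it. The GENCODE annotation also lists TRAV5 pseudogenes, and 1 of them, TRAV5N-2, was assigned to 6 clonotypes, none of which was functional. The germline 3′ ends of the genes in the GENCODE transcripts are shown because they set what a CDR3 can begin with, with the first CDR3 bases in capitals.
TRAV5-1: tcagccatctacttcTGCTCAGCAAGTA
TRAV5D-4: tcagccatgtacttcTGTGCTGCAAGTG
TRAV5N-4: tcagccatgtacttcTGTGCTGCAAGTG
TRAV5-4: tcagccatgtacttcTGTGCTGCAAGTG

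The germline transcripts of TRAV5D-4 and TRAV5N-4 had no difference in 343 bases. TRAV5-4 differed from both at 6 positions, an identity of 98.3%, whereas TRAV5-1 differed from TRAV5D-4 at 68 positions, an identity of 80.2%. The 13 germline bases of the CDR3 were the same in TRAV5-4, TRAV5D-4 and TRAV5N-4. These bases open the CDR3 with the residues CAAS in those 3 genes and with CSAS in TRAV5-1.

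The split of clonotypes between TRAV5D-4 and TRAV5N-4 moved with how much V sequence the CDR3 had kept, although the reference sequences of both genes are identical. Of the 579 TRAV5N-4 clonotypes, 99.8% carried at least 13 V bases in the CDR3, and none had fewer than 9. Of the 718 TRAV5D-4 clonotypes, 26.5% carried at least 13 V bases and 13.6% had fewer than 9. CAAS opened 93.3% of TRAV5N-4 CDR3s and 43.9% of TRAV5D-4 CDR3s. Of 347 TRAV5 CDR3 nucleotide sequences found in more than 1 sample, 42 were assigned to both TRAV5-4 and TRAV5N-4, 19 to both TRAV5-4 and TRAV5D-4, and none to both TRAV5D-4 and TRAV5N-4 or to TRAV5-1 and another gene. Whether such a sequence came from separate rearrangements of both genes or from differing assignment was not tested. The assignment to TRAV5-4 may thus also be uncertain against TRAV5D-4 and TRAV5N-4, which limits every comparison between them below. It was not shown to be so against TRAV5-1. Values of TRAV5D-4 and TRAV5N-4 taken apart are given as the tables assign them.

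TRAV5-4 was the most used gene of the family, with 1423 clonotypes, or 46.5% of the members. TRAV5D-4 and TRAV5N-4 together had 1297 clonotypes (42.4%), and TRAV5-1 had 342 (11.2%). As a share of all functional clonotypes of a sample, TRAV5-4 took 1.81% ± 0.293 (SD, n = 13), TRAV5D-4 0.911% ± 0.147, TRAV5N-4 0.733% ± 0.147 and TRAV5-1 0.433% ± 0.0985. Over the samples TRAV5-4 ranged from 1.11% to 2.36% with a median of 1.80%, and TRAV5-1 from 0.257% to 0.575% with a median of 0.438%. The ranges of these genes did not overlap.

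The J genes joined by TRAV5-4 differed from those joined by the other genes of the family. J genes are numbered downward along the locus, so that TRAJ58 lies at the V-facing end and TRAJ2 near the far end, and the mean TRAJ number of a set of clonotypes tells which end was used. The mean number was 41.4 ± 1.21 (SD, n = 13) for TRAV5-4 and 22.7 ± 0.762 for the other TRAV5 clonotypes of the same samples. In TRAV5-4 it was 40.9 and 39.4 at 1.5 months, 43.7, 40.4, 41.3 and 42.0 at 3 months, 41.3 and 41.4 at 5 months, and 42.1, 39.3, 41.9, 42.4 and 42.1 at 7 months. The other TRAV5 genes together ran from 21.5 to 24.4 over the samples. The lowest TRAV5-4 sample thus lay well above the highest sample of the other genes. TRAV5-4 was higher in 13 of 13 samples, by 18.7 ± 1.56 (two-sided exact permutation test on the paired differences, p = 0.000244, the smallest that 13 pairs allow; Benjamini-Hochberg adjusted p = 0.000326 over 4 properties). Against TRAV5-1 alone, with which no recurring CDR3 was shared, the difference was 19.4 (exact permutation test, p = 0.000244).

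Counted in another way, 55.2% ± 3.46 (SD, n = 13) of TRAV5-4 clonotypes used TRAJ41 or a higher number, against 4.76% ± 2.10 of the other TRAV5 clonotypes and 18.5% ± 0.749 of clonotypes of all other V families. TRAV5-4 ranged from 48.6% to 63.1% over the samples. TRAV5D-4 and TRAV5N-4 together ranged from 2.61% to 9.86% and had a mean TRAJ number of 22.9 ± 1.31. TRAV5-1 had a mean TRAJ number of 22.0 ± 1.99. Each of the 4 genes also differed from the rest of its sample, whose mean number was 27.3 to 27.6 depending on the gene left out, TRAV5-4 upward in 13 of 13 samples (adjusted p = 0.000830), TRAV5-1 and TRAV5N-4 downward in 13 of 13 (adjusted p = 0.000830 each) and TRAV5D-4 downward in 12 of 13 (adjusted p = 0.00141, exact permutation test, Benjamini-Hochberg over 71 V genes and 9 properties). A difference in TRAJ number from the rest was common, since 91.5% of the 71 V genes were called in this test. TRAV5-4 ranked 64 of the 71 from the lowest TRAJ number, and TRAV5-1, TRAV5N-4 and TRAV5D-4 ranked 16, 20 and 27.

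**Figure D1:**
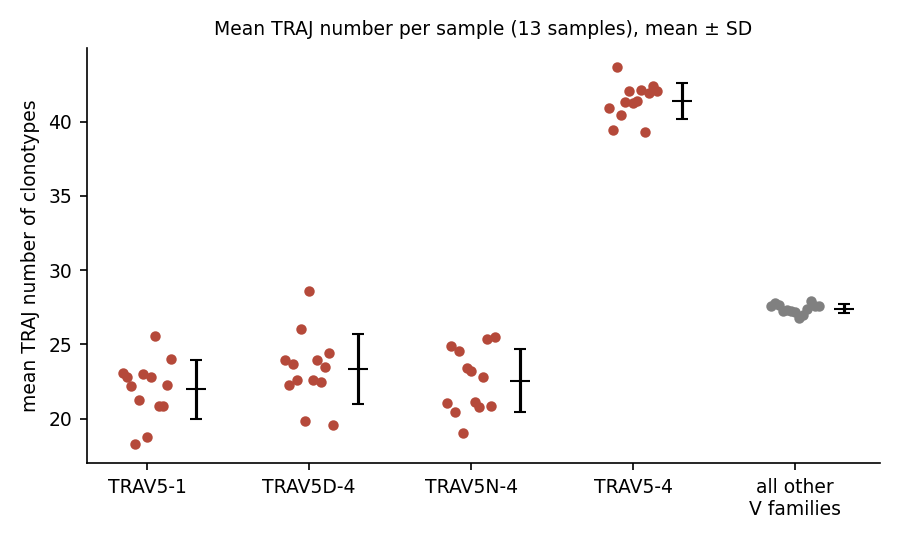
Mean TRAJ number of the functional clonotypes of each sample (vertical axis, a higher number lies nearer to the V genes) for the 4 TRAV5 genes in their order along the locus and for all other V families. Each point is 1 of 13 samples and bars show the mean ± SD; the TRAV5-4 points lie between 39.3 and 43.7, above every point of the other genes.

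The contrast between these genes was also present among rearrangements that cannot encode a receptor, though not in the few clonotypes assigned to the pseudogene TRAV5N-2. Of 152 non-functional TRAV5-4 clonotypes pooled over the samples, 69 used TRAJ41 or a higher number (45.4%), with a mean TRAJ number of 39.0. Of 137 non-functional TRAV5D-4 and TRAV5N-4 clonotypes, 8 did so (5.84%), with a mean number of 24.0, and of 65 non-functional TRAV5-1 clonotypes, 2 did so (3.08%), with a mean number of 25.9. All 6 clonotypes assigned to TRAV5N-2, which lies 929329 bases before TRAJ61 and so farther out than TRAV5-4, used TRAJ41 or a higher number (100%). The annotation also lists the pseudogenes TRAV5D-2 and TRAV5-2, the latter 539781 bases before TRAJ61, and the assignment among these may be uncertain. These pooled values were not tested.

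Single J genes followed the same division. TRAJ56, near the V-facing end, was the most frequent partner of TRAV5-4, with 112 of 1423 clonotypes (7.87%). It was not found with TRAV5D-4 or TRAV5N-4 in 1297 clonotypes, which allows a share of up to 0.231%, or with TRAV5-1 in 342 clonotypes, which allows up to 0.877%. These limits cover counting error only. The commonest partners of TRAV5D-4 and TRAV5N-4 were TRAJ13 (118 clonotypes, 9.10%), TRAJ21 (111, 8.56%) and TRAJ15 (101, 7.79%). Those of TRAV5-1 were TRAJ21 (38 clonotypes, 11.1%), TRAJ31 (37, 10.8%) and TRAJ23 (27, 7.89%).

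**Figure D2:**
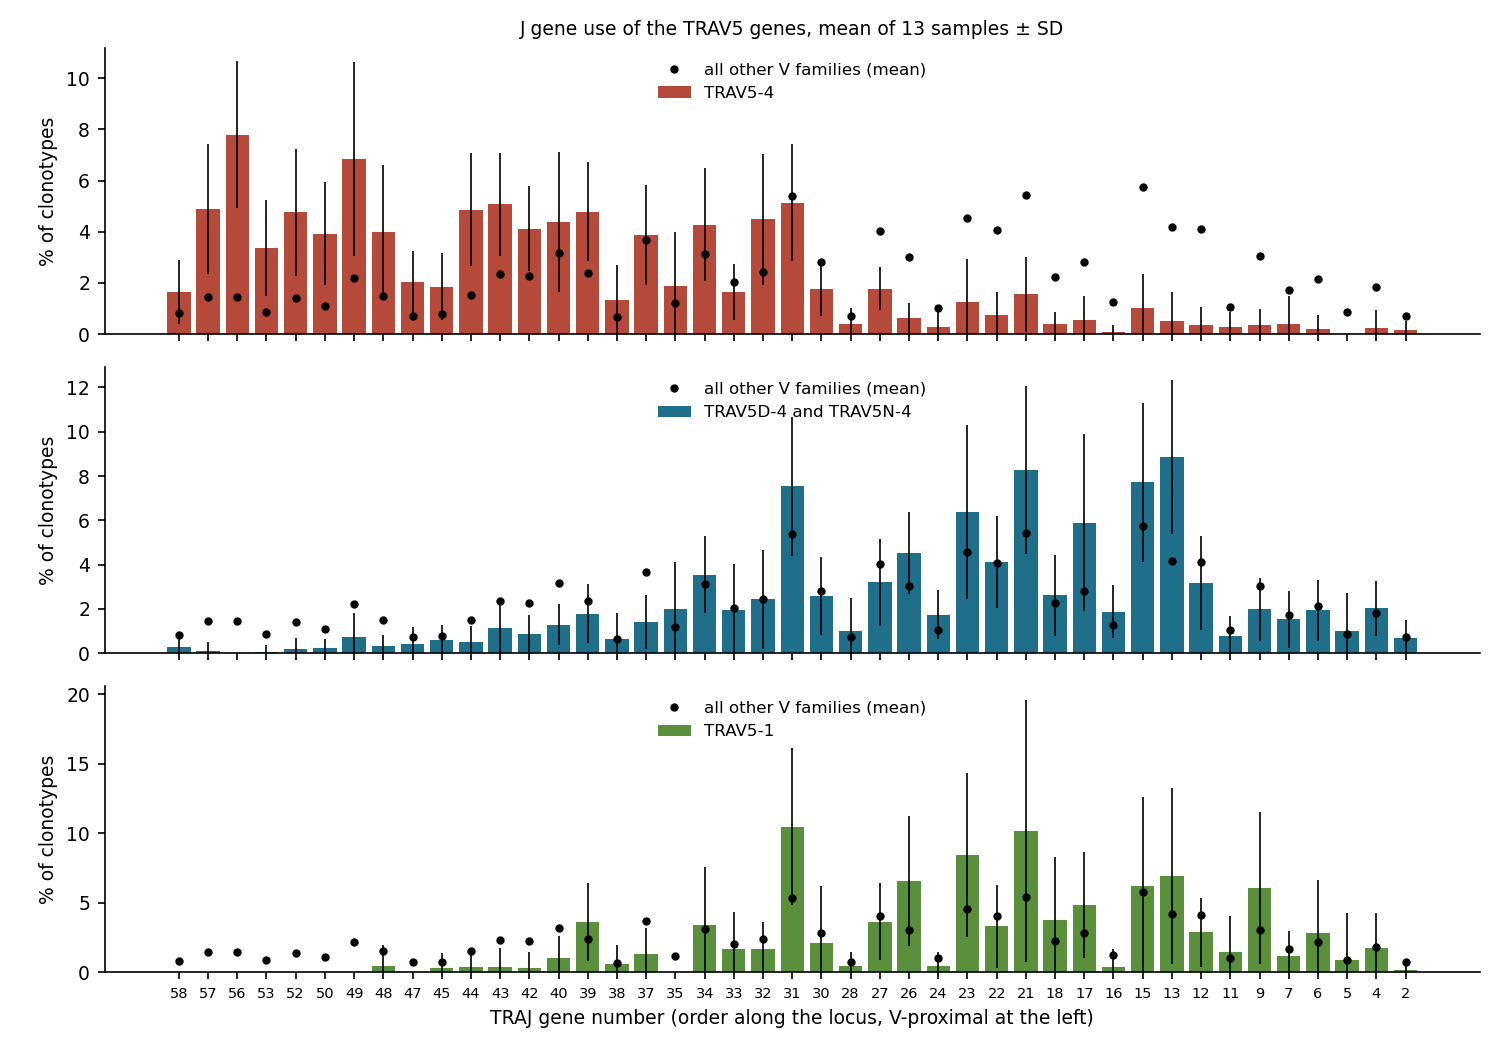
Share of clonotypes (vertical axes, percent, each panel on its own scale) that used each TRAJ gene (horizontal axis, in locus order with the V-proximal end at the left) for TRAV5-4, for TRAV5D-4 and TRAV5N-4 together, and for TRAV5-1. Bars are means over 13 samples with the SD and dots the mean of all other V families; TRAV5-4 exceeds the dots at the left and the other genes stay below them there.

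For the whole family the mean TRAJ number was 31.4 ± 0.776, against 27.4 ± 0.319 in the rest, higher in 13 of 13 samples (exact permutation test, adjusted p = 0.000596; 68.4% of families were called), a mean of genes that lay on either side of the rest. TRAV5 joined 43 J genes, and the 3 most used were TRAJ31 with 6.74% ± 1.72 of its clonotypes (SD, n = 13), TRAJ21 with 5.46% ± 1.84 and TRAJ13 with 4.78% ± 1.92. None of these passed the test against the rest of the same libraries, where they took 5.38%, 5.44% and 4.18% (edgeR quasi-likelihood test with the sample as a block, adjusted p = 0.0876, 0.969 and 0.309). Of 43 J genes tested, 15 were called (34.9%), 8 higher in TRAV5 (18.6%) and 7 lower (16.3%). The 8 that were higher lay between TRAJ39 and TRAJ57, and the 7 that were lower between TRAJ6 and TRAJ37.

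Among the J genes called higher, TRAJ56 stood first. It took 1.29% of TRAV5 clonotypes in the lowest sample, 3.53% in the median and 6.25% in the highest, against 1.30%, 1.41% and 1.69% in the rest. It was higher in 12 of 13 samples, with a log2 fold change of 1.31 (edgeR adjusted p = 2.19e-09). TRAJ44 took 2.51% ± 1.01 of TRAV5 and 1.51% ± 0.178 of the rest (log2 fold change 0.77, adjusted p = 0.00372), TRAJ50 1.91% ± 0.976 and 1.09% ± 0.192 (0.82, adjusted p = 0.00598), and TRAJ49 3.40% ± 1.37 and 2.21% ± 0.185 (0.60, adjusted p = 0.00634). The samples of TRAV5 and the rest overlapped for all 4 of these J genes. The TRAV5 shares rested on 155 to 343 clonotypes a sample.

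Among those called lower, TRAJ12 took 0.347% of TRAV5 clonotypes in the lowest sample, 1.63% in the median and 2.92% in the highest, and 3.67%, 4.12% and 4.51% of the rest. No TRAV5 sample reached the lowest sample of the rest, and the log2 fold change was -1.19 (edgeR adjusted p = 3.27e-07). TRAJ9 took 1.65% ± 0.740 and 3.06% ± 0.275 and was lower in 13 of 13 samples (log2 fold change -0.89, adjusted p = 0.000594). TRAJ22 took 2.49% ± 0.995 and 4.07% ± 0.319 (-0.70, adjusted p = 0.00258) and TRAJ27 2.55% ± 1.25 and 4.05% ± 0.265 (-0.65, adjusted p = 0.00406).

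As a family mean the CDR3 of TRAV5 was slightly shorter and more positively charged than that of the other families, with single genes on both sides of the rest. Mean CDR3 length was 13.37 ± 0.111 residues in TRAV5 and 13.50 ± 0.0241 in the rest (SD, n = 13), shorter in 11 of 13 samples (exact permutation test, p = 0.00269, adjusted p = 0.00499 over 19 families and 9 properties). Net charge, the number of lysines and arginines minus that of aspartates and glutamates, was 0.874 ± 0.0595 in TRAV5 and 0.706 ± 0.0117 in the rest, higher in 13 of 13 samples (p = 0.000244, adjusted p = 0.000596, exact permutation test). Most families differed from the rest in these properties, with 84.2% of the 19 families called for length and 89.5% for charge. TRAV5 ranked 5 of 19 from the shortest, between TRAV14 (13.25 ± 0.0663) and TRAV10 (13.42 ± 0.126), and 13 of 19 from the lowest charge, between TRAV7 (0.863 ± 0.0296) and TRAV3 (0.876 ± 0.0607), neighbours from which it differed by less than 1 SD in charge.

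By gene, TRAV5D-4 had a net charge of 1.10 ± 0.194, TRAV5-1 0.989 ± 0.256 and TRAV5-4 0.851 ± 0.0956, all called higher than the rest (adjusted p = 0.000830, 0.00563 and 0.00141, exact permutation test over 71 V genes, of which 83.1% were called). TRAV5N-4, at 0.564 ± 0.133, was called lower (adjusted p = 0.00712). In length only TRAV5-1 and TRAV5D-4 were called shorter than the rest (adjusted p = 0.000830 each; 67.6% of 71 genes were called). TRAV5-4 and TRAV5N-4, with most of the members, had means of 13.57 and 13.53 residues, on the other side of the rest, and did not pass the test (adjusted p = 0.162 and 0.685, exact permutation test).

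Within the family the CDR3 of TRAV5-4 was longer than that of TRAV5-1 and than that of TRAV5D-4 and TRAV5N-4 combined. Its mean length was 13.57 ± 0.146 residues, against 13.19 ± 0.151 in the other TRAV5 genes, and it was higher in 13 of 13 samples (exact permutation test, p = 0.000244, adjusted p = 0.000326). TRAV5-1 (13.07 ± 0.273) was shorter than TRAV5-4 in 13 of 13 samples. The combined clonotypes of TRAV5D-4 and TRAV5N-4 (13.23 ± 0.165) were also shorter than TRAV5-4 in every sample. As the tables assign them, TRAV5D-4 (12.99 ± 0.197) was shorter than TRAV5-4 in 13 of 13 samples and TRAV5N-4 (13.53 ± 0.260) was longer in 6 of 13. The split between TRAV5D-4 and TRAV5N-4 moved with the V bases kept in the CDR3. Its part in their separate lengths was not tested. The most frequent length over all members was 13 residues, with 970 of 3062 clonotypes, and lengths ran from 6 to 39. Hydrophobic residues at CDR3 positions 6 and 7 together were found in 0.674% ± 0.654 of TRAV5 clonotypes and 0.976% ± 0.119 of the rest (adjusted p = 0.161, exact permutation test; 52.6% of families were called). Without 7 months replicate 5, at 2.18%, the difference was -0.431 percentage points and passed (adjusted p = 0.0252, exact permutation test). The difference from the rest ran from -1.16 to 1.25 percentage points over the samples.

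The enzyme terminal transferase adds bases at the junction without a template, and inserted bases were counted as the recorded gap between V and J. They numbered 2.25 ± 0.171 a clonotype in TRAV5 and 2.17 ± 0.0486 in the rest (adjusted p = 0.117, exact permutation test, with 47.4% of 19 families called). The gap reached 73 bases in TRAV5, and whether all of these were added by the enzyme was not tested. No inserted base was found in 31.3% ± 3.18 of TRAV5 and 30.9% ± 0.950 of other clonotypes (adjusted p = 0.633, exact permutation test, with 63.2% of families called). Weighted by counts, this difference had the opposite direction. In 725 of the 3062 members the V end recorded in the tables lay beyond the 13 bases that the GENCODE transcripts give, and 467 of these counted as having no inserted base. The inserted length therefore depends on how the V end was placed.

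TRAV5 clonotypes held fewer counts on average than those of other families, although the median clonotype had 54 counts in both and single-count clonotypes made up 17.1% of TRAV5 and 17.4% of the rest. The share of counts divided by the share of clonotypes, on the log2 scale, was -0.20 ± 0.195 (SD, n = 13) for TRAV5 and 0.01 ± 0.0065 for the rest, and was lower in TRAV5 in 11 of 13 samples (exact permutation test, p = 0.00171, adjusted p = 0.00325; 42.1% of families were called). It was lowest in 5 months replicate 1, at -0.59, and above 0 in 5 months replicate 2 and 7 months replicate 5, at 0.02 and 0.04. More cells of a clone and more TCRα transcript per cell cannot be told apart in these counts. The family ranked 4 of 19 from the smallest, between TRAV2 (-0.21 ± 0.588) and TRAV1 (-0.19 ± 0.668), from which it differed by less than their SD. Of the 4 TRAV5 genes, TRAV5-1 had the lowest value, -0.60 ± 0.408, below the rest in 13 of 13 samples (adjusted p = 0.000830, exact permutation test over 71 V genes; 57.7% of genes were called), and it ranked 11 of the 71.

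The share of functional clonotypes that used TRAV5 exceeded its share of non-functional ones. It was 3.89% ± 0.432 of functional and 3.03% ± 1.06 of non-functional clonotypes (SD, n = 13), a difference of 0.862 ± 1.30 percentage points that was positive in 9 of 13 samples (exact permutation test, p = 0.0352, adjusted p = 0.0445 over 19 families). Of the 19 families, 78.9% were called in this comparison in one direction or the other. The non-functional share rested on 360 of 11848 clonotypes. With each sample left out in turn the call was lost in 8 of 13 fits, with adjusted p from 0.0200 to 0.0891 (exact permutation test). It was also lost with a minimum of 2 counts and without clonotypes far more abundant in another library.

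CDR3 sequences of TRAV5 were shared between samples less often than those of other families when the family had to match, and more often when it did not. Within the family, 39.7% ± 4.80 of the CDR3 amino-acid sequences of a sample were also found in another sample, against 49.4% ± 3.34 in the rest (SD, n = 13). TRAV5 ran from 31.3% to 50.4% with a median of 40.0%, the rest from 46.0% to 57.2% with a median of 48.4%, and TRAV5 was lower in 13 of 13 samples (exact permutation test, p = 0.000244, adjusted p = 0.000596; 84.2% of 19 families were called). The highest share was in TRAV14 (61.2%), which took 15.0% of functional clonotypes, and the lowest in TRAV2 (24.3%), which took 0.328%. A larger family offers more clonotypes to match, and the part of family size in these values was not tested. The TRAV5 genes differed widely in this share, at 16.4% ± 9.19 for TRAV5-1, the lowest of 71 V genes, 31.3% ± 7.74 for TRAV5D-4, 45.8% ± 7.38 for TRAV5-4 and 50.8% ± 7.53 for TRAV5N-4. The first 3 were called lower than the rest (adjusted p = 0.000830, 0.000830 and 0.0303, exact permutation test; 69% of genes were called) and TRAV5N-4, with a rest of 50.0%, was not (adjusted p = 0.767). For single genes too, a match with any gene of the family counted. TRAV5-1 had 342 clonotypes, of which 0% opened with CAAS, the germline start of the other 3 genes. TRAV5D-4 and TRAV5N-4 have identical references, and the part of the assignment between them in their values was not tested. When a sequence counted as shared whatever its V gene, the values were 65.2% ± 4.08 and 59.4% ± 2.81, and TRAV5 was higher in 13 of 13 samples (exact permutation test, adjusted p = 0.000588; 94.7% of 19 families were called). Its rank rose from 8 to 17 of 19 families. TRAV10 (65.7% ± 3.93) and TRAV4 (65.0% ± 2.57) were the neighbours in that order and differed from it by less than 1 SD.

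**Figure D3:**
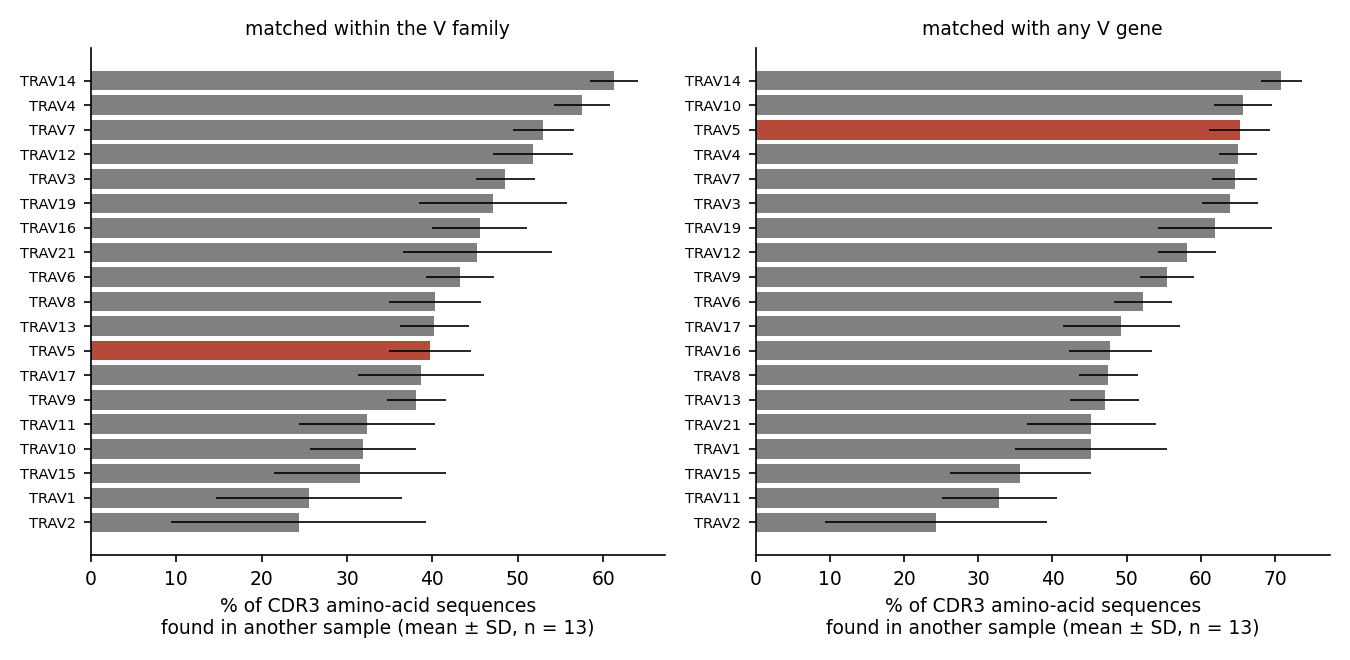
Share of the CDR3 amino-acid sequences of a sample that were found in at least 1 other sample (horizontal axes, percent, mean ± SD over 13 samples) for 19 V families, matched within the family at the left and with any V gene at the right. TRAV5, in red, stands at 39.7% at the left and at 65.2% at the right.

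Of the 2260 TRAV5 amino-acid sequences, 1120 (49.6%) also occurred in a clonotype of another V family. TRAV14 held 911 of them (40.3% of the 2260), TRAV7 660 (29.2%), TRAV10 262 (11.6%) and TRAV4 217 (9.60%). Of all functional clonotypes of a sample, these families took a mean of 15.0%, 18.8%, 2.26% and 10.0%. The same overlap was not counted for other families, so whether it is particular to TRAV5 was not tested. At the nucleotide level 61 of 2586 CDR3 sequences (2.36%) were assigned to another family in some sample, 50 of them to TRAV4.

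Within the family most sequences were private. Of the amino-acid sequences, 1787 (79.1%) were found in 1 sample, 343 in 2, 77 in 3 and 3 in 8, the largest number reached. Of 2647 nucleotide clonotypes, 311 (11.7%) were found in 2 or more samples and 8 in 6. The share of TRAV5 nucleotide clonotypes of a sample that recurred elsewhere was 23.6% ± 6.22, against 24.5% ± 4.15 in the rest (adjusted p = 0.284, exact permutation test; 63.2% of families were called). The difference passed the test with a minimum of 2 counts, at -3.51 percentage points (adjusted p = 0.00145), and weighted by counts, at -4.43 points (adjusted p = 0.0345, exact permutation test). Over 78 pairs of samples, the nucleotide clonotypes found in both made up a median of 1.46% of those found in either. A pair made of 3 months replicate 4 and 5 months replicate 1 stood at 7.91% (31 clonotypes), and 3 months replicate 4 with 1.5 months replicate 1 at 7.19% (41 clonotypes), while the next pair was at 3.82%. Without 3 months replicate 4, the nucleotide difference from the rest was -2.07 percentage points (adjusted p = 0.0193, exact permutation test), and the amino-acid difference within the family was -10.7 points, against -9.70 with all samples.

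The 3 amino-acid sequences found in 8 samples are described with 1 of the 4 found in 7, the one with the highest mean share of counts. These all opened with CAAS, the germline start. The nucleotide sequence of each that was found in the most samples is given to show what recurred, with the bases that the tables place between V and J in capitals, of which these 4 have none. In those made with TRAJ22, TRAJ56 and TRAJ13 the V end was placed at base 19, 18 and 15, past the 13 germline bases, so that some bases in lower case are not in the GENCODE V transcript.
TRAJ22, 14 residues: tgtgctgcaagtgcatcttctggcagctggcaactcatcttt
TRAV5-4 with TRAJ56, 14 residues: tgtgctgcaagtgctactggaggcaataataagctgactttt
TRAJ42, 13 residues: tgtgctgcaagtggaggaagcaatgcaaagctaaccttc
TRAJ13, 13 residues: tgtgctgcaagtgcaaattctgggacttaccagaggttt

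The amino-acid sequence made with TRAJ22 was found in 8 samples, in all 4 at 3 months, both at 5 months and 2 at 7 months, but in neither at 1.5 months. Its share of functional counts was highest in 5 months replicate 1, at 0.0868%. The one made with TRAV5-4 and TRAJ56 was also found in 8 samples and reached 0.0967% in 5 months replicate 2. It was encoded by 4 nucleotide sequences in TRAV5, and in 2 of the 7-month samples it rested on 1 count each. The one made with TRAJ42 was found in 8 samples with a highest share of 0.0419%. The one made with TRAJ13 was found in 7 samples with a highest share of 0.0787%. The sequences made with TRAJ22, TRAJ42 and TRAJ13 occurred with V genes of other families in all 13 samples, and the one made with TRAJ56 occurred with TRAV14 in 8.

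The amino-acid sequence with the most nucleotide encodings was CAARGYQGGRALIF, made with TRAJ15, which had 5 in the family and was found in 3 samples. Its encodings are shown to mark where they differ from one another, again with the bases between V and J in capitals.
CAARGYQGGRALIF, encoding 1: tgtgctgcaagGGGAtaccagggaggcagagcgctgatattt
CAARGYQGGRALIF, encoding 2: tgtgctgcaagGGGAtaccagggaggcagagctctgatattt
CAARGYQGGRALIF, encoding 3: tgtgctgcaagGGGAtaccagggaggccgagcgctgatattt
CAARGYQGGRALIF, encoding 4: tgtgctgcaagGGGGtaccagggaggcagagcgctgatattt
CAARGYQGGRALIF, encoding 5: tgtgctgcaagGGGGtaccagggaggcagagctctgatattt
Encoding 2 had 209 of the 265 counts and encoding 5 had 35, and the J part of both was found in the GENCODE TRAJ15 transcript. The other 3, with 21 counts together, had a J part that was not, and whether they were separate rearrangements was not tested. The rank of this sequence rests on them. All 5 carried 4 inserted bases. Encodings 1 and 4 had the same J part, as had encodings 2 and 5, so that these pairs differed only within the inserted bases.

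Over the time course the share of the repertoire that used TRAV5 did not pass a test for change. The inverse Simpson index within the family, explained below, was called lower at 7 than at 1.5 months. It did not pass relative to the rest of the repertoire or divided by the clonotype number. TRAV5 took 4.03% ± 0.366 of functional clonotypes at 1.5 months (SD, n = 2), 4.01% ± 0.162 at 3 months (n = 4), 3.42% ± 0.763 at 5 months (n = 2) and 3.92% ± 0.472 at 7 months (n = 5). The log2 fold change of 7 over 1.5 months was -0.09 (edgeR adjusted p = 0.719) and that of 7 over 3 months -0.07 (adjusted p = 0.816). None of the 19 families was called in either contrast (0%), and 3 and 1 families had an unadjusted p under 0.05. None of the 4 TRAV5 genes was called either, with log2 fold changes of 7 over 1.5 months from -0.15 for TRAV5-4 to 0.15 for TRAV5D-4 (edgeR adjusted p from 0.896 to 0.968). Of 90 V genes none was called (0%) in either contrast, and 6 and 1 had an unadjusted p under 0.05.

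The share of functional counts was 4.13% and 3.02% at 1.5 months, 3.61%, 3.55%, 3.36% and 3.08% at 3 months, 1.91% and 4.02% at 5 months, and 3.28%, 3.62%, 3.54%, 3.50% and 3.85% at 7 months. The groups overlapped, and no later time point passed the test against 1.5 months (exact permutation test over 540540 arrangements, corrected for 3 comparisons, p = 0.967, 0.565 and 1.00 at 3, 5 and 7 months). At 5 months the samples lay at the lowest and the second highest end of the series, and without 5 months replicate 2 the remaining sample was 1.66 percentage points below 1.5 months (p = 0.0412, exact permutation test, with the lone sample assumed to vary like the other groups).

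The number of TRAV5 clonotypes was 343 and 245 at 1.5 months, 288, 216, 255 and 268 at 3 months, 155 and 191 at 5 months, and 184, 235, 213, 240 and 229 at 7 months. Both 5-month samples and all 5 of the 7-month samples lay below both 1.5-month samples, as they did in 94.7% of the 19 families at 5 months and 31.6% at 7 months. The mean difference from 1.5 months was -121 at 5 months (exact permutation test, p = 0.0126, adjusted p = 0.0601 over 19 families), -73.8 at 7 months (p = 0.0637) and -37.2 at 3 months (p = 0.437). The 5-month difference had p = 0.114 without 1.5 months replicate 1 and p = 0.123 without 5 months replicate 1 (exact permutation test), and the 7-month difference was -123 with p = 0.00759 without 1.5 months replicate 2. Each of these fits leaves 1 group with a single sample, which is assumed to vary like the other groups. At 5 months 36.8% of families were called lower before adjustment, TRAV5 among them, and 0% after it. At 7 months 5.26% of families were called lower after adjustment and 26.3% before it, and TRAV5 was in neither set.

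The inverse Simpson index within the family, which is low where a few clonotypes hold most counts and equals the clonotype number where all are the same size, was 121 and 117 at 1.5 months. It was 69.6, 94.0, 111 and 58.8 at 3 months, 67.7 and 93.6 at 5 months, and 49.9, 40.9, 72.9, 23.9 and 32.1 at 7 months. All 5 samples at 7 months lay below both at 1.5 months, which was so in 36.8% of the 19 families, and 4 of them lay below every earlier sample. The mean was 119 ± 2.66 (SD, n = 2) at 1.5 months and 43.9 ± 18.9 (n = 5) at 7 months, a difference of -75.2 (exact permutation test, p = 0.00192, adjusted p = 0.0365 over 19 families). TRAV5 was the 1 family called lower at 7 months (5.26%; 21.1% had an unadjusted exact p under 0.05), and in percent of the 1.5-month mean its difference, -63.1%, was the largest decrease of the 19, followed by TRAV12 at -62.7%, which had an unadjusted exact permutation p of 0.0198. The differences at 3 months (-35.8, p = 0.144) and at 5 months (-38.5, p = 0.179) did not pass the exact permutation test. With a replicate block both passed it, although the replicate numbers do not pair the samples. All 4 samples at 3 months lay below both at 1.5 months, as they did in 26.3% of families.

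**Figure D4:**
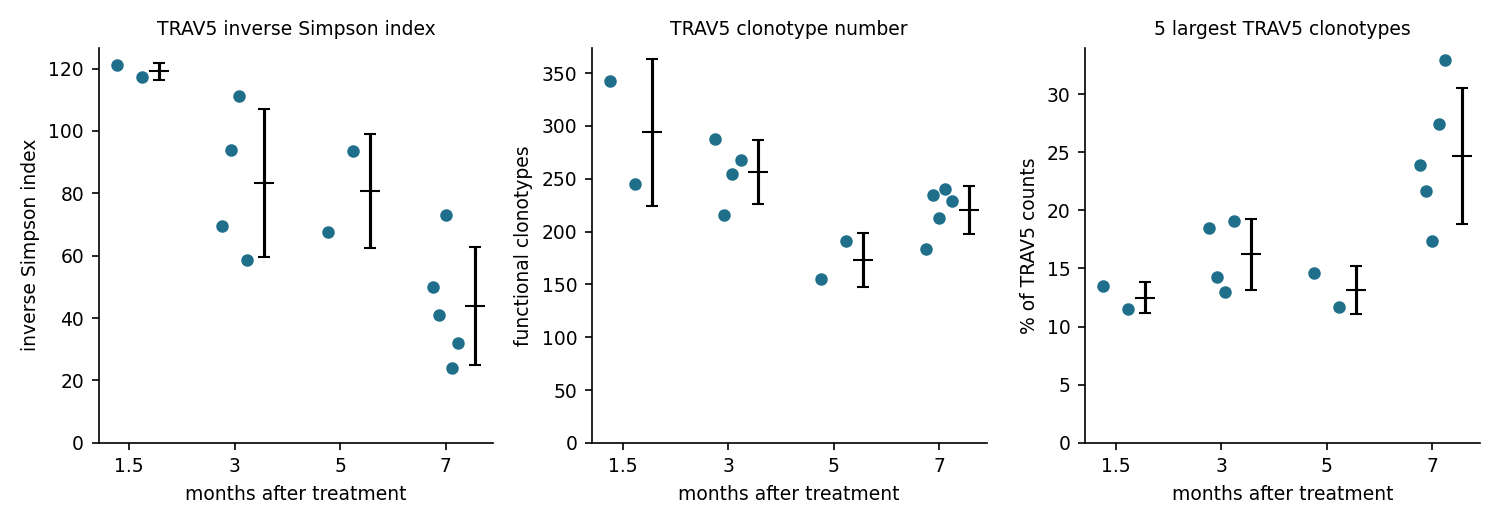
Inverse Simpson index within TRAV5, number of functional TRAV5 clonotypes, and share of TRAV5 counts in its 5 largest clonotypes (vertical axes) by months after treatment. Each point is 1 sample and bars show the mean ± SD of the group; the index at 7 months lies between 23.9 and 72.9, below both samples at 1.5 months.

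The index also fell along the 4 time points, with Pearson's r = -0.81 (permutation test, p = 0.00129, adjusted p = 0.00774 over 6 trends) and Spearman's rho = -0.81 (p = 0.00152). Over 19 families the adjusted p of this trend was 0.0245, and TRAV5 was the 1 family called (5.26%). Leaving out both 1.5-month samples, the farthest from the median month, gave r = -0.69 (unadjusted p = 0.0229, adjusted p = 0.138, permutation test), which did not pass after adjustment. The clonotype number had r = -0.57 and rho = -0.61 (p = 0.0376 and 0.0310, adjusted p = 0.113 and 0.0931, permutation test). A negative r of the clonotype number had an unadjusted permutation p under 0.05 in 42.1% of the 19 families. The share of clonotypes (r = -0.14, rho = -0.36), the share of counts (r = 0.03, rho = 0.08), CDR3 length (r = 0.24, rho = 0.07) and inserted bases (r = -0.05, rho = -0.17) had adjusted p of 0.859 or more for r and 0.446 or more for rho (permutation test).

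Relative to the index of the rest of the repertoire, the decrease in TRAV5 did not pass the test. The index of all other clonotypes was 1063 and 1504 at 1.5 months (1284 ± 312) and ran from 230 to 1156 at 7 months (677 ± 392), and these ranges overlapped. The means at 3 and 5 months were 992 ± 191 and 771 ± 436, and no test of the rest was made. The log2 ratio of the TRAV5 index to that of the rest was -3.41 ± 0.386 at 1.5 months and -3.81 ± 0.814 at 7 months (exact permutation test, p = 0.726). Divided by the number of TRAV5 clonotypes, the index was 0.416 ± 0.0889 at 1.5 months and 0.205 ± 0.0994 at 7 months (exact permutation test, p = 0.0759).

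The 5 largest TRAV5 clonotypes of a sample held 13.4% and 11.5% of the family's counts at 1.5 months, 18.5%, 14.2%, 13.02% and 19.1% at 3 months, 14.6% and 11.7% at 5 months, and 23.9%, 21.7%, 17.4%, 27.4% and 32.9% at 7 months. All 7-month samples lay above both 1.5-month samples, which was so in 31.6% of the 19 families, and the mean difference was 12.2 percentage points (exact permutation test, p = 0.0276, adjusted p = 0.395 over 19 families). The number of TRAV5 clonotypes above 0.1% of functional counts was 3 and 0 at 1.5 months and 4, 1, 5, 1 and 7 at 7 months, and these ranges overlapped.

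The largest TRAV5 clonotype of each time point is shown with the bases that the tables place between V and J in capitals. In the 5-month clonotype the V end was placed at base 19, past the 13 germline bases.
1.5 months, TRAV5-4 with TRAJ44: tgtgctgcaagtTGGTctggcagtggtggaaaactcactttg
3 months, TRAV5D-4 with TRAJ9, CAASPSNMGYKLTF: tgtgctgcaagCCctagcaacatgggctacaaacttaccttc
5 months, TRAV5D-4 with TRAJ17, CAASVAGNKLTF: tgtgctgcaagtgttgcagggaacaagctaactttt
7 months, TRAV5D-4 with TRAJ45, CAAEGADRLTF: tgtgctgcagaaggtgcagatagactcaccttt

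The TRAV5-4 clonotype with TRAJ44 took 0.162% of functional counts in 1.5 months replicate 1 (Wilson 95% interval 0.152% to 0.173%). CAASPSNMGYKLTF took 0.297% in 3 months replicate 4 (0.284% to 0.312%), which was 9.65% of the counts of the family there. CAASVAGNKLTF took 0.118% in 5 months replicate 2 (0.109% to 0.128%). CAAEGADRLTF was the largest of all, with 3146 counts or 0.659% in 7 months replicate 4 (0.637% to 0.683%), 18.9% of the counts of the family in that sample. Each of these nucleotide clonotypes was found in 1 or 2 other samples with at most 4 counts, so the high share stood in a single sample each time. The intervals cover counting error only. Without the largest TRAV5 clonotype of each sample, the 7-month difference of the inverse Simpson index was -52.3 (exact permutation test, p = 0.0425).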

How the data were processed

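TCRα rearrangements were tabulated in 13 samples. The authors aligned reads with MiXCR, assembled clonotypes and processed them with VDJtools. The deposited count is a whole number per clonotype, and the sources used here do not state whether it is reads or molecules. The deposited fraction is that count over the sample's total and was not used. Totals ran from 509818 to 936831 counts, and 3 counts are 3.40e-04% to 6.29e-04% of functional counts. The submitters' processing notes name GRCm38. Positions and germline transcripts came from GENCODE on that build.

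Clonotypes with a stop or frameshift were removed except where stated. Inserted bases are those between the deposited V end and J start. Shares of clonotypes were tested by quasi-likelihood F tests (edgeR 4.0.16, R 4.3.3, after filterByExpr and TMM scaling) in 1 model of 4 groups, or with the sample as a block for J genes. Other tests were two-sided exact permutation tests, over 540540 arrangements of samples for time points or 8192 sign changes for 13 paired differences, and 100000 permutations for trends (Python 3.11.15, numpy 2.4.6, pandas 2.3.3, scipy 1.17.1). Values were adjusted by Benjamini-Hochberg over all families (at least 10 clonotypes in every sample) or V genes. Alternatives were DESeq2 1.42.0, library totals, no filter, summed counts, a minimum of 2 counts and equal depth at 477052 counts (mean of 10 draws). A replicate block and each sample left out were used as well. So was removal of each clonotype that had 100 times its share of counts or more in some other library. Figures used matplotlib 3.10.9.

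The members, properties and lists were chosen with earlier results of these data known. All TRAV5 genes were named. Named J genes were the 3 most used by TRAV5 and, in each direction, the 4 with the smallest adjusted p under 0.05. Named clonotypes were the largest of each time point, the 4 amino-acid sequences in most samples and the 2 with most encodings, with ties resolved by mean share of counts (both lists had one). The sequence made with TRAJ56 is in both lists. Other families are named where they neighbour TRAV5 in an order. The comparison of TRAV5-4 with the other TRAV5 genes, and of the index with the rest, was added after the values were seen.

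In simulated counts with 2-fold changes, the edgeR test recovered 92.5% of changed families among 19, 86.6% of changed V genes among 90 and 87.5% of changed J genes among 43. Of its calls 2.63%, 4.19% and 3.67% were false. Apart from these changes the simulated samples differed by counting error only, so the rates do not cover further spread between real samples.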

Additional observations from a re-analysis of the deposited data

Results flagged for a closer look

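In groups of 4 or 5 samples, 54 sets of TRAV5 values were searched for a sample set apart from its group, and 5 were found (9.26%). Chance flags about 1 in 20 independent sets, but these sets overlap, since TRAV5-4 is part of TRAV5. In 7 months replicate 4, TRAV5 took 4.76% of functional clonotypes against 3.63% to 3.79% in the other samples at 7 months. TRAV5-4 took 2.36% there against 1.66% to 1.73%. That sample also held the largest TRAV5 clonotype, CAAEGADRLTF. In 7 months replicate 5, 2.18% of TRAV5 clonotypes had hydrophobic residues at CDR3 positions 6 and 7, against 0% to 0.543% in the others. In 7 months replicate 2, the mean TRAJ number of TRAV5-4 was 39.3 against 41.9 to 42.4. In 3 months replicate 4, TRAV5N-4 took 0.409% of functional counts against 0.657% to 0.701% in the others at 3 months. That sample shares the most TRAV5 nucleotide clonotypes with 5 months replicate 1 and 1.5 months replicate 1, and the part of that sharing in the value was not tested.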

How the results depend on the processing

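Of 850 values under alternative settings, 777 kept their direction and their side of the threshold (for counts of J genes, stayed within 1.5 times), 43 changed direction, 14 passed the threshold only under the alternative and 16 lost it. Most changes of direction were in values near 0. On log2 scales of 7 over 3 months, TRAV5 stood at 0.045, TRAV5D-4 at 0.097 and TRAV5N-4 at 0.19 by summed counts, and TRAV5-4 at -0.0032 by DESeq2 and -0.0096 with no filter. TRAV5N-4 stood at 0.26 for 7 over 1.5 months by summed counts. The 7-month share of counts differed by 0.0081 on the log2 scale. TRAJ21 was at -0.092 with a minimum of 2 counts.

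The replicate numbers do not pair the samples (14 pairs of equal number, correlations of deviations from the group means -0.49 to 0.54, 5 above 0.1). With the replicate block, the 3-month and 5-month differences of the inverse Simpson index were -37.3 (exact permutation p = 0.0226) and -38.5 (p = 0.0391), the 7-month one -73.8 (p = 0.00260), TRAV5D-4 was at 0.013 for 7 over 3 months and the trend of the share of counts at -0.046.

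Alternatives chosen after seeing the data gave the 7-month index difference as -0.41 (log2) relative to the rest and -0.21 divided by the clonotype number, and the 5-month one as 0.26 and 0.048. The index trend without the farthest 2 samples was -0.69. The trend of inserted bases was 0.18 without them, 0.13 with a minimum of 2 counts and 0.0032 at equal depth. With only the compared groups, the clonotype number differed by -121 at 5 months (exact permutation p = 0.333, the smallest that 2 against 2 allow) and -73.8 at 7 months (p = 0.0476), and with a minimum of 2 counts by -73.3 at 7 months (p = 0.0145). Against the rest, inserted bases differed by 0.115 with a minimum of 2 counts and nucleotide sharing by -3.51 with that minimum and -4.43 weighted by counts, all of which passed the test, while clonotypes without an insert differed by -1.28 weighted by counts and amino-acid sharing by 5.79 with any V gene. The functional share exceeded the non-functional one by 0.788 with a minimum of 2 counts and 0.824 without clonotypes far more abundant in another library, and neither passed. The cause of these changes was not tested.

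With each sample left out in turn, log2 values of 7 over 1.5 months ran from -0.17 to 0.023 for TRAV5 and -0.49 to 0.52 for TRAV5-1. In the same contrast TRAV5-4 ran from -0.24 to -0.12, TRAV5D-4 from 0.046 to 0.18 and TRAV5N-4 from -0.24 to 0.013. Values of 7 over 3 months ran from -0.082 to 0.040 for TRAV5-4, -0.12 to 0.070 for TRAV5D-4 and -0.24 to 0.045 for TRAV5N-4. The share of counts ran from -0.735 to 0.379 points at 3 months, -1.66 to 0.448 at 5 months and -0.576 to 0.538 at 7 months. The clonotype number ran from -86.2 to 11.8, -170.0 to -72.0 and -122.8 to -24.8. The index difference ran from -45.0 to -27.6 at 3 months and -51.4 to -25.5 at 5 months, and stayed between -82.4 and -70.2 at 7 months. Nucleotide sharing ran from -2.07 to -0.234 points and clonotypes without an insert from 0.112 to 0.847 points. Hydrophobic residues ran from -0.431 (adjusted exact permutation p = 0.0252 without 7 months replicate 5) to -0.230. The functional difference ran from 0.670 to 1.02 and TRAJ21 from -0.061 to 0.12. TRAJ31 passed under DESeq2 (log2 0.36, adjusted p = 0.0329), by the exact permutation test of percent differences (adjusted p = 0.0442) and without 5 months replicate 1 (edgeR log2 0.39, adjusted p = 0.0356). J genes called higher numbered 7 to 11 and lower 5 to 10. Limits include 2 samples at 1.5 and at 5 months, the assignment among TRAV5 genes, non-functional shares that rest on few clonotypes, and counts of unstated kind.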
